A study of Drosophila melanogaster with 5 samples.

Results

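ZIPIC binding was mapped by chromatin immunoprecipitation and sequencing (ChIP-seq) in embryos of Oregon-R, a wild-type strain of Drosophila melanogaster, collected over 12 h at 25 degrees. The sites described here are all rows of 2 peak lists made by the submitters from 1 ZIPIC library, 575 called against input DNA and 514 called against a preimmune rabbit serum precipitate. The main set is the 488 input-list intervals that overlap a preimmune-list interval by at least 1 bp on the same sequence, out of 5386 rows in the lists of all proteins of the study. The antibody was raised in rabbits against residues 84 to 257 of ZIPIC. Chromatin was fixed with 1.8% formaldehyde for 15 min, 50 µg went into the precipitation, and 0.5 µg served as input. The control label says preimmune sera, while the protocol text names rabbit IgG. The peak names give chromatin preparation B for ZIPIC and carry the gene name CG7928, which the RefSeq gene table pairs with the symbol ZIPIC. Each library exists once, so peaks are the units and no test between conditions is possible. Intervals of shares and medians treat the peaks as a sample, and those of single pileups and densities cover counting error. None covers the variation between libraries.

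ZIPIC is a DNA-binding protein with C2H2 zinc fingers and an N-terminal zinc-finger-associated domain. It was named for its interaction with the cofactor CP190, a BTB-domain protein found at many Drosophila insulators and promoters. Proteins of this class bind defined sequences and bring CP190 to them, and they are studied as architectural or insulator proteins. Positions are given on build dm3, counted from 1. No genome or annotation of that build was used here, so sites are named by position and not by gene or sequence.

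The fold in the lists is the authors' value, the ZIPIC signal at the summit (the highest point of a peak) over the local background of the control. Fold and p-value of a peak together give 2 numbers, the pileup (how many ZIPIC fragments overlap the summit) and the control background. This pileup came out whole, within 0.05 of a fragment, for 100% of the peaks in both lists. The background had a floor of 1.06 ZIPIC fragments per 152 bp, the shortest interval in the lists and taken as the fragment length. Above the floor, every background in both lists equalled a whole number of control fragments counted over 152 bp, 1 kb or 10 kb. The tolerance was 1e-05 of a ZIPIC fragment, and wider in proportion to the value for the highest backgrounds. Where more than 1 stretch fitted, the shortest was taken, so a count given for 1 kb can stand for one over 10 kb. The size of the steps made by 1 control fragment gave the depth of the controls relative to the ZIPIC library. For each ZIPIC fragment, the input library held 36.5 fragments and the preimmune library 3.22, so input was 11.3 times deeper than preimmune serum. At the floor, a stretch of 152 bp held on average 38.7 input fragments and 3.41 preimmune fragments.

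At a typical site called against both controls, 35 ZIPIC fragments were stacked at the summit (median, 95% order-statistic interval 32 to 38, n = 488). Pileups ran from 8 to 186, with quartiles of 20 and 53. The median fold was 15.0 over input (14.1 to 16.0) and 12.5 over preimmune serum (11.5 to 13.6). Fold over input followed the pileup closely (Spearman rho 0.97 over 488 peaks of 1 library). The fold is computed from the pileup, so this is largely built in. The input background had quartiles of 1.16 and 1.51 fragments. In pooled embryos, binding in few cells and weak binding in many cells cannot be told apart from these heights.

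The choice of control changed the fold of a peak more than its position. Both lists rest on the same ZIPIC reads, so agreement in summit and pileup is largely built in and does not measure the controls. The summits of both lists coincided exactly at 196 of the 488 sites (40.2%, Wilson 95% interval 35.9 to 44.6) and lay within 10 bp at 464 (95.1%, 92.8 to 96.7). The pileup at the summit was the same in both lists at 485 sites. Summits more than 100 bp apart occurred at 3 sites, with 1065 bp as the largest distance. In 6 wide input-list intervals, of 1011 to 2645 bp, the preimmune call gave 13 separate intervals. The shortest overlap that put a site into the main set was 135 bp, at 2R 17066331 to 17066482, where the folds were 4.99 over input and 5.88 over preimmune serum. Just outside, the input-list interval at X 2684990 to 2685345 (fold 4.74) ended 149 bp from a preimmune-list interval, and the preimmune-list interval at 2R 13435197 to 13435348 (fold 5.79) lay 79 bp from an input-list one.

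On the 5 large chromosome arms both controls ranked ZIPIC sites much alike, and elsewhere they did not. The 442 arm sites had a median ratio of fold over input to fold over preimmune serum of 1.02 (1.00 to 1.06), and 17 of them (3.85%, 2.42 to 6.07) had a ratio above 2. Another 46 sites lay on chromosome 4, on assembled heterochromatin (3RHet) and on the unplaced sequences U and Uextra. There the median ratio was 1.97 (1.23 to 3.96), and 22 of 46 (47.8%, 34.1 to 61.9) had a ratio above 2. Across sites, the folds over both controls had a Spearman rho of 0.90 on the arms (442 peaks) and −0.36 elsewhere (46 peaks). Both folds share the same ZIPIC reads, so these are descriptions.

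**Figure D1:**
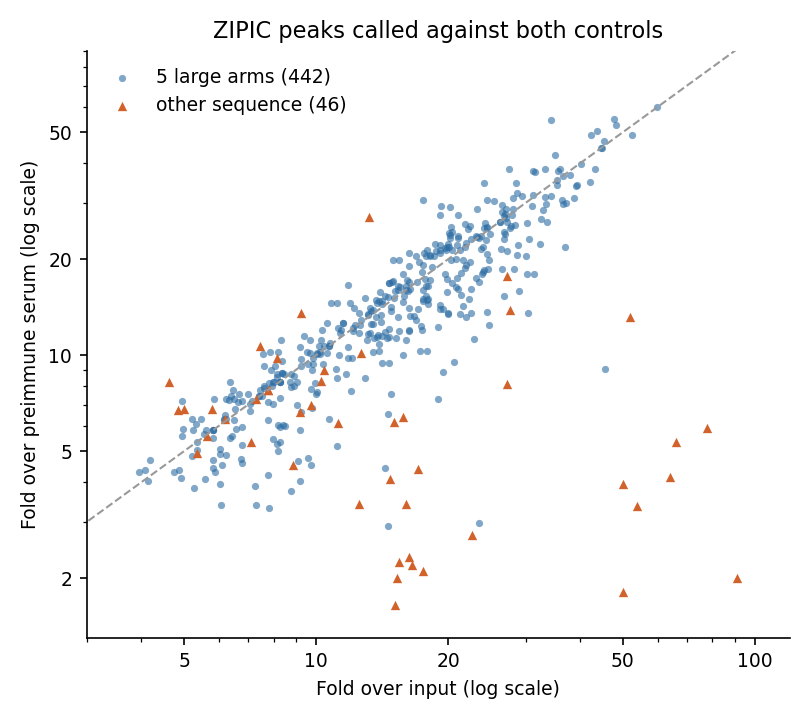
Each point is 1 of the 488 ZIPIC peaks called against both controls, with its fold over input on the horizontal axis and its fold over preimmune serum on the vertical axis, both logarithmic. The 442 peaks of the large arms (circles) lie along the dashed line of equal folds, while many of the 46 others (triangles) lie far below it, down to a fold of 1.64 over preimmune serum.

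Of the 20 highest pileups, 11 were not on a large arm (Wilson interval 34.2 to 74.2%). Outside the arms, 24 sites had more than 30 stacked ZIPIC fragments, and at 12 of them the input background was at the genome floor. At the other 12 it was set by input fragments within 152 bp, with a median of 130.5 (57 to 184) and a highest value of 253, against a genome average of 38.7. The sites named next are the 5 with the highest fold over input outside the arms, a ranking that favours sites with low input. The site at Uextra 5223933 to 5224528 had 186 ZIPIC fragments at its summit (exact Poisson 95% interval 160 to 215). Its input background was at the genome floor, but 298 preimmune fragments covered the same 152 bp, which scale to 92.5. Its fold was therefore 90.8 with input and 1.999 with preimmune serum as the control. The other 4 by this ranking also lay on Uextra, with input at the floor and folds over preimmune serum between 3.36 and 5.91. At Uextra 7039284 to 7039825 there were 159 ZIPIC fragments and 84 preimmune fragments, with folds of 77.7 and 5.91. The sites at 27346760 to 27347379, 26599248 to 26599657 and 19603802 to 19604143 had pileups of 135, 131 and 110. Preimmune fragments there numbered 79, 99 and 103.

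Among the 24 sites outside the arms with more than 30 fragments, 23 had a preimmune background above 2 times the floor (95.8%, 79.8 to 99.3), and 21 had a ratio of folds above 2. Their median preimmune background was 25.6 fragments on the ZIPIC scale (7.14 to 36.3). Among the 22 lower sites there, 5 had such a background and 1 such a ratio, and the median ratio was 1.01 (0.83 to 1.32). On the arms, 55 of the 250 sites above 30 fragments (22.0%, 17.3 to 27.5) and 38 of the 192 lower ones (19.8%, 14.8 to 26.0) had a preimmune background above 2 times the floor. The input background was above 2 times the floor at 10 of 442 arm sites (2.26%) and 12 of 46 others (26.1%). At the floor, 152 bp held on average 3.41 preimmune and 38.7 input fragments, so counting error passes this limit more easily for preimmune serum. The shares of the controls are thus not directly comparable, and the part of depth in their difference was not tested. Only sites also called against preimmune serum are counted here, and a low site over a high preimmune background cannot be called. Outside the arms, 22 of 41 input-list sites with up to 30 fragments were called against both controls, so the contrast between high and low sites there is set in part by that selection. The limit of 30 fragments was set with the values in view, and no cause of the preimmune signal was tested.

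On the large arms the highest site was 3L 12565332 to 12565908, with 122 ZIPIC fragments at the summit (101 to 146). Both controls were at the genome floor there, and the fold was 59.8 over either. It was followed by 3R 3947820 to 3948456 with 117 fragments and folds of 52.6 and 48.8, and by 2L 13176488 to 13177132 with 117 fragments and folds of 48.1 and 52.6. These 3 summits thus had pileup intervals that overlap each other. The site at 3L 5806140 to 5806611 had 112 fragments, with folds of 47.8 over input and 54.9 over preimmune serum. Further high sites were 3L 8179487 to 8180206, 2L 11268855 to 11269436, 3L 3198792 to 3199346, 2L 11106512 to 11107049 and 3L 8108834 to 8109423. Their pileups were 104, 99, 106, 109 and 101, with folds over input between 43.3 and 45.2. At all 10 highest arm sites the summits of both lists, which rest on the same ZIPIC reads, lay within 1 bp.

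One of these 10 sites stood apart. The site at 3R 25597721 to 25598122 had 95 ZIPIC fragments (76.9 to 116) and a fold of 45.6 over input, but 31 preimmune fragments lay within 152 bp and its fold over preimmune serum was 9.03. A second ZIPIC summit 506 bp away, in the interval 3R 25598255 to 25598581, had 38 fragments and folds of 14.3 and 4.44. The preimmune library held 165 fragments within 1 kb there, against a genome average of 22.4.

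Among the arm sites with the highest ratio of folds, 3 of the first 5 were wide intervals. At X 5792419 to 5795063, the widest ZIPIC interval at 2645 bp, 50 ZIPIC fragments gave a fold of 23.5 over input. With 52 preimmune fragments in 152 bp, the fold over preimmune serum was 2.97. The second widest, 3L 7346998 to 7349576, had folds of 14.5 and 2.92, measured at summits 1065 bp apart. At X 253597 to 255359 the folds were 18.9 and 7.29, and its neighbour X 248642 to 251068, the third widest, had 14.6 and 6.54. In all, 9 sites were wider than 1 kb, all on large arms, where 442 of all 488 sites lay. On X there were 3 of the 9 (33.3%, 12.1 to 64.6), against 71 of the 442 arm sites (16.1%, 12.9 to 19.8). The median preimmune background of the 9 wide sites was 3.73 fragments (3.02 to 8.92). A ratio above 2 occurred at 5 of the 9, compared with 12 of the 433 narrower arm sites (2.77%).

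At the other end, some sites had a high input background and little preimmune signal. The lowest ratio on the arms was 0.57, at 2R 19452233 to 19452535, where 95 input fragments lay within 152 bp and preimmune serum was at the floor. Folds there were 17.5 over input and 30.6 over preimmune serum. The site at 3R 25314868 to 25315430 had 111 ZIPIC fragments (91.3 to 134). Its fold was 34.4 over input, with 543 input fragments in 1 kb against an average of 254, and 54.4 over preimmune serum, the third highest by that control. No arm site had a ratio below 0.5, which for 442 sites leaves a share of up to 0.862% (Wilson).

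The stretch of control that set the background differed between the controls. A 10 kb count that is a multiple of 10 also fits 1 kb and was assigned to 1 kb. The 1 kb numbers can thus include 10 kb sites. Against input, the background on the arms came from the 10 kb window at 204 of 442 sites (46.2%, 41.6 to 50.8), from 1 kb at 119, from 152 bp at 68 and from the genome floor at 51. Against preimmune serum, the 152 bp window set it at 204 sites (46.2%, 41.6 to 50.8), with 83 from 1 kb, 68 from 10 kb and 87 at the floor. Behind those 152 bp values stood few reads, with a median of 6 preimmune fragments and a highest value of 52, compared with a median of 55 input fragments. The upper quartile of these preimmune values was 8 fragments. At the floor, 152 bp held on average 3.41 preimmune and 38.7 input fragments. The 152 bp window sets a background only where its count exceeds the floor, so these counts lie above the average by construction. The part of this depth gap in the difference between windows was not tested. Outside the arms the 1 kb and 10 kb windows never set the input background (0 of 46 sites, Wilson upper bound 7.71%), which was at the floor at 19 sites and from 152 bp at 27.

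**Figure D2:**
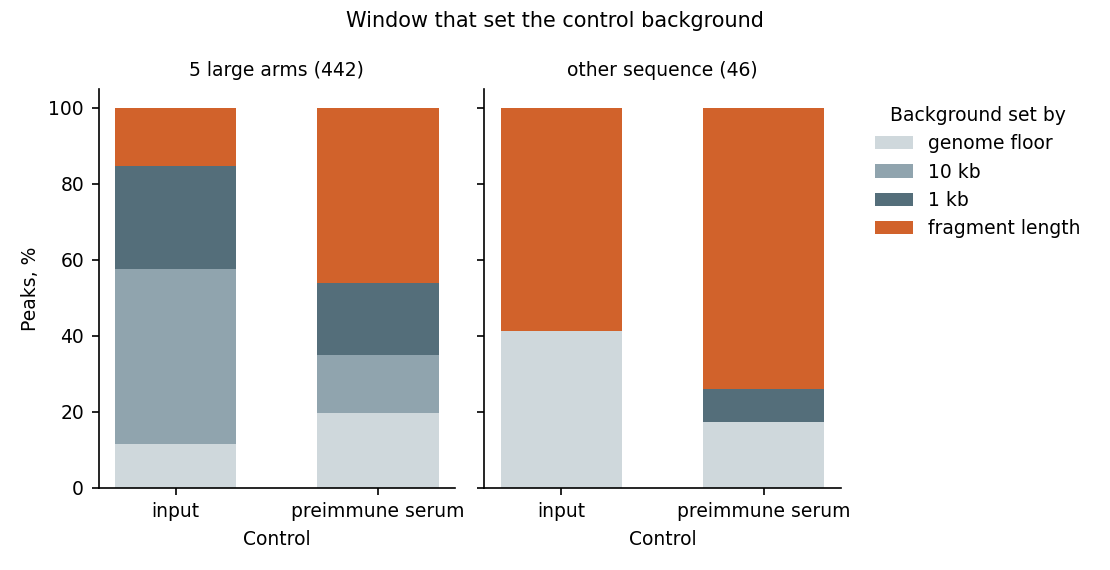
Bars give the percentage of ZIPIC peaks called against both controls whose control background came from the genome-wide floor, from 10 kb, from 1 kb or from the fragment length of 152 bp, for each control. Backgrounds that fit both 1 kb and 10 kb are drawn as 1 kb. On the large arms (left, 442 peaks) the fragment length set 15.4% of input and 46.2% of preimmune backgrounds, and on other sequence (right, 46 peaks) 58.7% and 73.9%.

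Changing the control removed 87 sites from the input list and added 19. The share of input-list peaks also called against preimmune serum was 84.9% (81.7 to 87.6). It was 88.6% on the arms (442 of 499, 85.5 to 91.1) and 60.5% elsewhere (46 of 76, 49.3 to 70.8). On single arms the share ran from 87.5% on 2R to 92.2% on X, with overlapping intervals. On Uextra it was 60.3% (38 of 63, 48.0 to 71.5).

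The arm sites that were lost were low ones. The same pileup enters both calls, so sites near the calling limit are the easiest to lose by construction. All 250 arm sites with more than 30 ZIPIC fragments were called against both controls (Wilson interval from 98.5%), as were 81 of 83 with 21 to 30 fragments. With 16 to 20 fragments it was 56 of 63, and with 15 or fewer 55 of 103 (53.4%, 43.8 to 62.7). The 57 arm sites called against input alone had a median pileup of 12 (11 to 12), a highest of 23, and folds of at most 10.2. Elsewhere height did not order the loss in this way, with 9 of 14, 5 of 13, 8 of 14 and 24 of 35 called against both controls in the same 4 classes. The 30 lost sites there had a median pileup of 23 (18 to 38) and a highest of 64. The highest fold among lost sites was 14.9, at Uextra 14301880 to 14302167 with 46 fragments. It was followed by Uextra 22840185 to 22840456 (14.2), Uextra 15572687 to 15572960 (14.1), U 9142982 to 9143262 (14.0) and Uextra 11426116 to 11426359 (12.6).

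Of the 87 lost intervals, 21 had the minimum width of 152 bp, 19 of them on the arms. With a preimmune background at the floor, the pileups of all 87 would have passed the lowest −log10 p of the preimmune list, 4.93. The background that would bring a lost pileup down to that value had a median of 3.36 fragments on the ZIPIC scale. The preimmune background at the lost sites is not in the lists, so its part in the loss was not tested.

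The 19 sites called against preimmune serum alone were low and narrow. Their pileups ran from 8 to 14 (median 11), their widths from 152 to 207 bp, and their median fold over preimmune serum was 5.66 (4.47 to 6.32). On the large arms there were 14. By arm they were 7 of the 86 preimmune-list peaks on 2R, 1 of 84 on 2L, 3 of 92 on 3L, 2 of 127 on 3R and 1 of 74 on X. No difference between arms was tested. The highest were U 1042015 to 1042221 (fold 7.29), 2R 10146410 to 10146561 (6.42), and 2R 16531478 to 16531629, 2R 19738540 to 19738714 and 3RHet 1202125 to 1202302, each at 6.32.

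ZIPIC intervals were short and centred on their summits. The median width was 337 bp (316 to 346), with quartiles of 256 and 416 bp. The summit lay at 50.2% of the interval (49.2 to 51.1) counted from its lower coordinate, a median of 19.75 bp from the middle. It fell into the central 20% of the interval at 341 of 488 sites (69.9%, 65.7 to 73.8). Width rose with height, from a median of 210.5 bp (199 to 221) in the lowest of 4 equal groups by pileup to 283.5, 362.5 and 441 bp (414 to 465) in the next ones. Over all sites, rho between width and pileup was 0.76 (488 peaks). An interval is drawn around the fragments that stand above background, so width and height are not independent measures. The summit's place in the interval did not follow height (rho 0.024). Against preimmune serum the same sites had a median width of 321 bp (305 to 334). Site by site, the width against input minus that against preimmune serum had a median of 0 bp and quartiles of −5 and 20 bp. The 3 narrowest sites, at 2L 12012309 to 12012460, 2L 19064818 to 19064969 and 2R 14038928 to 14039079, were at the minimum of 152 bp, with 17, 14 and 11 fragments.

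**Figure D3:**
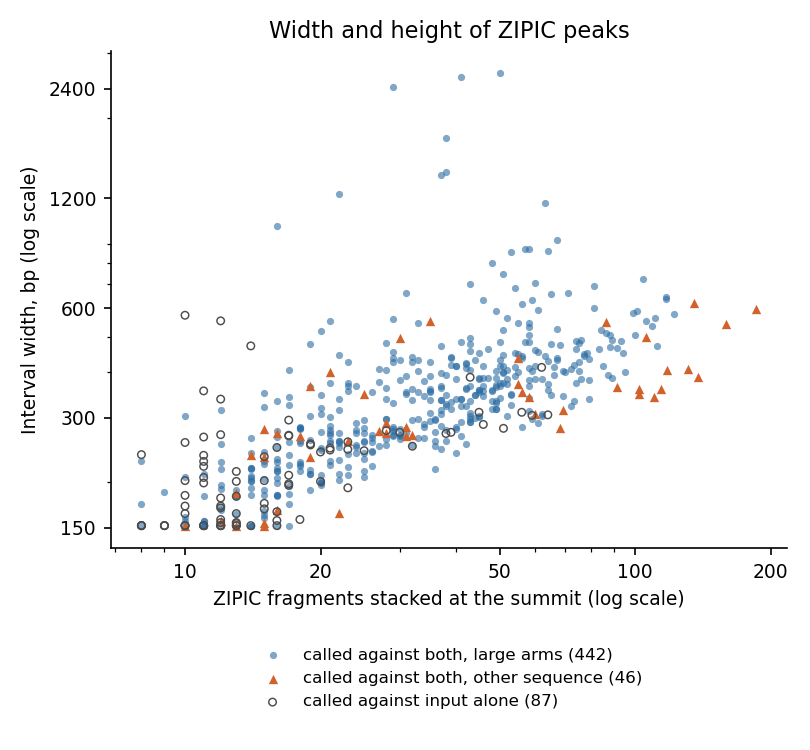
The number of ZIPIC fragments stacked at the summit (horizontal) is plotted against interval width in bp (vertical), both on logarithmic axes, for each input-list peak. Width rises with height from the 152 bp minimum, 9 intervals above 1 kb stand apart from the cloud, and the 87 peaks called against input alone (open circles) have quartiles of 11 and 19 fragments and reach 64.

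ZIPIC sites lay on all 5 large arms. Up to the highest coordinate in any list, 3R held 124 sites or 4.45 per Mb (exact Poisson 95% interval 3.71 to 5.31). The other arms held 3.86 per Mb (2R, 77 sites, 3.04 to 4.82), 3.67 (3L, 88 sites, 2.95 to 4.53), 3.59 (2L, 82 sites, 2.86 to 4.46) and 3.27 (X, 71 sites, 2.56 to 4.13). All 5 intervals overlapped. Median pileup was 28 on X (21 to 34) and between 36 and 39 on the autosomal arms, again with overlapping intervals. X sites had a median width of 283 bp (259 to 310), below the 337 to 359 bp of the other arms, and only the interval of 3L (330 to 383) and that of 3R (319 to 375) lay wholly above it. Chromosome 4 and 3RHet held 1 site each, U 6 and Uextra 38.

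**Figure D4:**
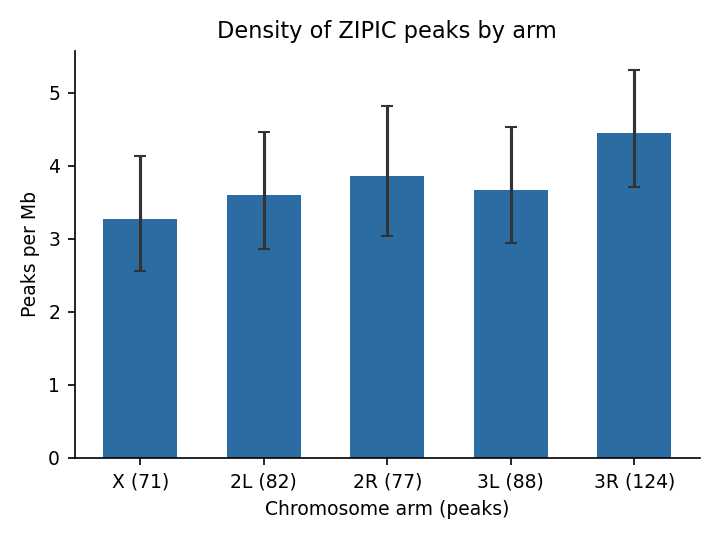
Bars give ZIPIC peaks called against both controls per Mb of each large arm, with the number of peaks under each bar, and error bars are exact Poisson 95% intervals. Densities run from 3.27 on X to 4.45 on 3R, and all error bars overlap.

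Counting 5 equal parts of each arm from the telomere to the centromere (low coordinates are telomeric on X, 2L and 3L, and centromeric on 2R and 3R), the 5 arms together held 106, 96, 91, 71 and 78 sites. Of 117 bins of 1 Mb, 6 had no ZIPIC site. The longest empty stretch was 2407 kb on 2L, between summits at 13892963 and 16300244. The bin with the most sites, 12, was 3L 9000001 to 10000000, and 2L 9000001 to 10000000 held 11.

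Some ZIPIC sites had close neighbours. Between adjacent summits on an arm, the median gap ran from 130 kb on 2R to 177 kb on X. The distance to the nearer of both neighbours, which is shorter than a gap by construction, had a median of 45.8 kb (35.4 to 57.7) over the 442 arm sites. Neither value was set against a random placement. Another summit lay within 5 kb of 74 of the 442 arm sites (16.7%, 13.6 to 20.5). By arm this share ran from 9.09% on 2R (4.47 to 17.6) to 21.8% on 3R (15.4 to 29.8). In the 4 equal groups by pileup the share was 14.8%, 17.2%, 13.9% and 16.4% of sites, from low to high, with no steady order. Sites within 5 kb of another had a median pileup of 34 (25 to 45, 76 sites), and the others 35 (32 to 38, 412 sites). In the 41 adjacent pairs within 5 kb the median distance was 2127 bp. The higher member of a pair had a median of 1.45 times the pileup of the lower, and in 12 pairs it had more than 2 times.

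**Figure D5:**
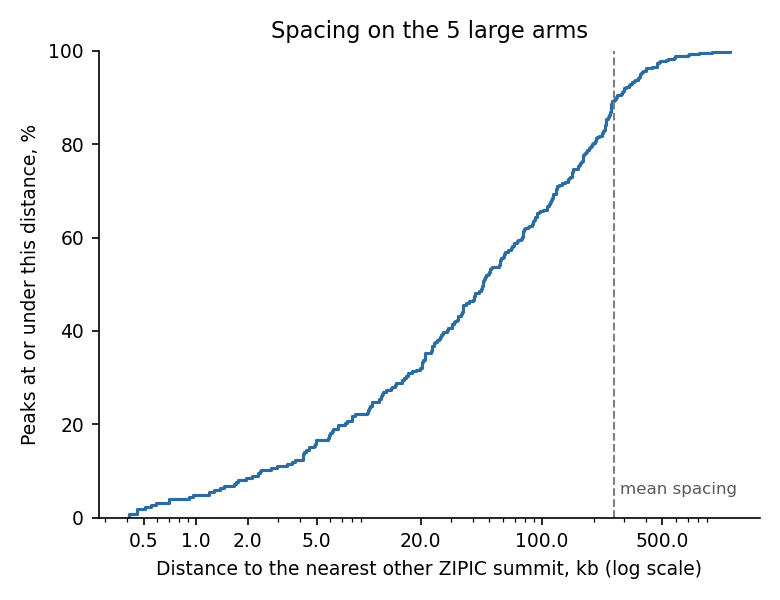
The curve gives the percentage of the 442 ZIPIC peaks on the large arms whose nearest other ZIPIC summit lies at or under the distance in kb on the logarithmic horizontal axis, and the dashed line marks the arms' length per peak, 263 kb, which is not the value to expect for a nearest distance. The curve reaches 16.7% at 5 kb and passes its middle at 45.8 kb.

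Most such groups were pairs. With gaps of at most 5 kb, 412 sites stood alone, 30 groups had 2 sites, 4 had 3 and 1 had 4. The group of 4 spanned 10425 bp on 2L, with summits from 2874849 to 2885274 and pileups of 23, 56, 60 and 75 in that order. The groups of 3 were at 3L 3193122 to 3199081 (pileups 33, 56 and 106), 2L 9758345 to 9763199 (81, 73 and 25), 2R 13432586 to 13436185 (17, 36 and 26) and 3R 7640467 to 7648251 (8, 53 and 21). In all but the 2R group, the highest member thus had more than 3 times the pileup of the lowest. The closest summits were 410 bp apart, at 3L 19550301 and 19550711, with 30 and 10 fragments. Next came X 7795429 and 7795841, 412 bp apart, with 11 and 72 fragments and both controls at the floor. Others were Uextra 3941544 and 3941960 (416 bp), 3R 2976636 and 2977092 (456 bp, 15 fragments each) and 3L 1313186 and 1313646 (460 bp, 20 and 83 fragments). None of the 41 close pairs had intervals that touched.

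Zw5 and Pita are zinc-finger proteins mapped in the same study. Of the 372 autosomal sites on 2L, 2R, 3L, 3R and 4, 73 (19.6%, 15.9 to 24.0) carried a Zw5 peak called against both controls and 261 carried neither Zw5 nor Pita. The median ZIPIC pileup was 64 (54 to 75) at the former and 31 (28 to 35) at the latter, and the median ratio of folds was 1.00 (0.94 to 1.04) and 1.04 (1.00 to 1.10). Of the 10 highest arm sites over input, 9 carried a Zw5 peak, and the exception was 3R 25597721 to 25598122. Antibodies and libraries differed between the proteins, and the part of peak height in this overlap was not tested.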

How the data were processed

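Per the submitters' processing notes, cutadapt, Bowtie, MACS2 2.1.0.20140616 and build dm3 were used on single reads of 51 cycles. No source used here gives the arguments, thresholds or duplicate treatment. The deposited narrowPeak files hold, per peak, the fold (a ratio over the control's local background), a −log10 p and −log10 q value, and a score, which for 100% of ZIPIC peaks was the integer part of 10 times the −log10 q. Peaks were called separately per library and control, per the file names. The lowest −log10 q was 2.18 against input and 1.96 against preimmune serum.

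From these values, pileup and background λ were solved from fold = (pileup + 1)/(λ + 1) and the Poisson upper tail, taking the larger of the roots. This assumes MACS2's default formulas. Of random values, 5.29% would match a whole number of input fragments in the 1 kb or 10 kb window, and 0.466% of preimmune fragments. On simulated data, the pileup and the step of 1 control fragment were checked. The assigned windows were not compared with known ones. Relative depth counts the fragments MACS2 used, and total reads are not known. Intervals are Wilson for shares, exact Poisson for counts and exact binomial (order statistic) for medians, all at 95%. No p-values of differences were computed.

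Named sites were the 10 highest arm peaks and the 5 highest elsewhere, the extremes of the ratio of folds, of width and of peaks called against 1 control, groups of 3 or more summits with gaps of at most 5 kb, and the 5 closest pairs. The members and lists were chosen with earlier results of these data known. Alternatives were a −log10 q of at least 10, overlap of 50% of both intervals, summits within 100 bp, large arms only, each whole list, and distances of 2 and 20 kb. Python 3.11.15, numpy 2.4.6, pandas 2.3.3, scipy 1.17.1 and matplotlib 3.10.9 were used.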

Additional observations from a re-analysis of the deposited data

How the results depend on the processing

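Of 48 values recomputed under the alternatives, 37 stayed within the 95% interval of the reported value and 11 moved outside it. With a −log10 q of at least 10, which keeps 381 sites, the median fold was 17.5 over input and 15.1 over preimmune serum, the median width was 359 bp, and 6.56% of sites lay outside the large arms. All input-list peaks gave a fold of 13.3, a width of 305 bp and 13.2% outside the large arms, and all preimmune-list peaks a width of 313 bp. The stricter limit drops peaks of low −log10 q against either control by construction. The whole lists add peaks called against 1 control, with a median pileup of 13 for input alone and 11 for preimmune serum alone. Outside the arms, the 30 input-alone peaks were not all low, with a median pileup of 23 and a highest of 64. On the 5 large arms alone, 88.6% of input-list peaks were also called against preimmune serum, and the cause was not tested. Another summit lay within 2 kb of 8.20% and within 20 kb of 30.7% of sites, as wider distances must hold more. Without the pseudocount of 1 in the fold, pileups came out whole in 10.4% of input-list and 8.95% of preimmune-list peaks, so that alternative gave no value. No paired analysis was possible because each group has 1 library. The depth of the preimmune library limits the folds where the 152 bp window sets its background. At the floor that window held 3.41 preimmune fragments on average, and a background between 2 whole fragments cannot be resolved in it.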
